A study of Mus musculus with 6 samples.

Results

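The transcripts described here are 42 genes of the urea cycle and of amino acid breakdown, taken by symbol from a fixed list out of 34866 genes in the deposited table. All 42 were matched to an Ensembl identifier, and all 42 had enough counts to be tested. The list was made without using the measured values of this comparison as a rule, but it was drawn up with earlier results of these data known. RNA was measured in livers of male C57BL/6 mice aged 8 weeks, with food and water freely available to every group. The 3 libraries of one group came from mice given vehicle and the 3 of the other from mice given iD1, a compound known here by its code name alone, by intraperitoneal injection. The dose, the time between injection and collection, and the target of iD1 are not stated in the labels. The treatment label of the vehicle samples calls them untreated, while their titles and the series text name a vehicle. One vehicle column carries a number that no sample title has and is called the unnumbered vehicle library.

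Hepatocytes remove nitrogen from amino acids and turn the resulting ammonia into urea. Carbamoyl phosphate synthetase and ornithine transcarbamylase act in the mitochondrial matrix, and the remaining steps, from argininosuccinate to arginine and urea, run in the cytosol. Each amino acid enters breakdown through its own first enzyme, and the carbon left over feeds glucose, ketone bodies or the citric acid cycle. Most of these pathways are strongest in liver, and fasting hormones are known to raise several of their first enzymes. The branched-chain amino acids are an exception, because their first step, transamination, takes place mainly outside hepatocytes.

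The libraries held between 23515571 and 37613549 estimated counts. The tested genes separated vehicle from iD1 on the first principal component, with 64.3% of the variance of log2(CPM + 1). Values in CPM, that is, counts scaled to a common library total, below are on library sizes scaled by TMM, and SDs are over the 3 libraries of a group. Mitochondrially encoded genes took 10.6% to 13.6% of the counts in vehicle and 8.68% to 10.3% in iD1 libraries, ranges that do not overlap. Hepatocyte markers, 7 genes such as albumin, summed to 80890.1 to 101316 CPM in vehicle and 98364 to 105669 CPM in iD1 libraries, so hepatocyte transcripts were abundant in every library. The 5 neutrophil markers summed to 0.266 to 0.398 CPM in vehicle and 2.06 to 10.3 CPM in iD1 libraries, and Ly6g was at 0 in every iD1 library. Of the 5, 3 could be tested and all 3 were called higher. With vehicle near 0, a gene could reach the minimum count for testing only with the help of iD1 libraries. The filter thus favoured calls in this direction, and the 3 calls add little to the sums. The 7 Kupffer cell markers summed to 115 to 192 CPM in vehicle and 110.3 to 158 CPM in iD1 libraries, ranges that overlap. The 6 endothelial markers summed to 129 to 175 and 122 to 149.9 CPM, but the sum holds genes that went in opposite directions. Of the 6, 3 were lower in every iD1 library (Stab2 -0.59, Kdr -0.98 and Clec4g -0.41 as log2 fold changes) and Lyve1 was higher in every one (1.43). None of the 6 was called by edgeR, although 5 had an unadjusted p under 0.05, while DESeq2 called 2 lower and limma-voom 1 higher and 1 lower. Of 5 cholangiocyte markers Krt19 was called lower (log2 fold change -2.66, SE 0.41, edgeR adjusted p = 0.00312) and Sox9 higher (log2 fold change 0.85, SE 0.24, edgeR adjusted p = 0.0386), and the Sox9 call was lost in 5 of the 6 fits with 1 library left out. The 6 stellate cell markers, of which Lrat was called lower (-1.77), summed to 153 to 211 and 148 to 199.6 CPM. All 6 had log2 fold changes below 0, with a median of -0.24, and 2 of the 6 were lower in every iD1 library. The part of other cells in the results below was not tested, and in whole liver fewer cells of a type and less RNA per cell cannot be told apart.

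Of the 42 genes 8 rose with iD1 and 1 fell. A gene was called at a threshold of 0.05 on the Benjamini-Hochberg adjusted p of edgeR's quasi-likelihood F test over 13718 genes. The rises were Aass, Mat1a, Tdo2, Sdsl, Bhmt, Slc25a15, Asl and Bckdha, and the fall was Bcat2. They cover the first steps of lysine and tryptophan breakdown, a serine dehydratase paralog and successive steps of branched-chain breakdown. Slc25a15 and Asl are the carrier and the argininosuccinate lyase step of the urea cycle. Mat1a and Bhmt belong to the methionine cycle, of which Gnmt and Ahcy were not called. In each of the 9 genes the 3 vehicle and 3 iD1 values did not overlap. The share called higher was 19.0% of the 42 genes, against 8.42% of all tested genes, and the share called lower was 2.38%, against 8.30%. In either direction 21.4% of the 42 were called, against 16.7% of all tested genes. Of the 42 genes, 41 averaged at least 20 CPM. Among all tested genes at that level, 13.1% were called higher and 7.00% lower.

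The median log2 fold change of the 42 genes was 0.12, while that of all tested genes was 0.00. The single values ran from -0.55 for Hal to 1.33 for Aass, with 30 above and 12 below 0, and 13 of those above 0 were below it with library size as the only scaling. Vehicle and iD1 did not overlap in 17 of the 42 genes, 13 of them higher and 4 lower. Over all tested genes the groups did not overlap in 37.2%, with 18.5% higher and 18.7% lower. With library size as the only scaling, the median of all genes moved to -0.20 and that of the 42 genes to -0.08, and 5 genes were called higher and 3 lower. With upper-quartile scaling the median of all genes was -0.07, and 6 of the 42 were called higher and 3 lower. Of all called genes 50.4% were higher, against 38.4% with upper-quartile scaling and 24.1% with library size only. Of the 42 genes, 2 changed at least 2-fold, Aass and Mat1a.

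**Figure D1:**
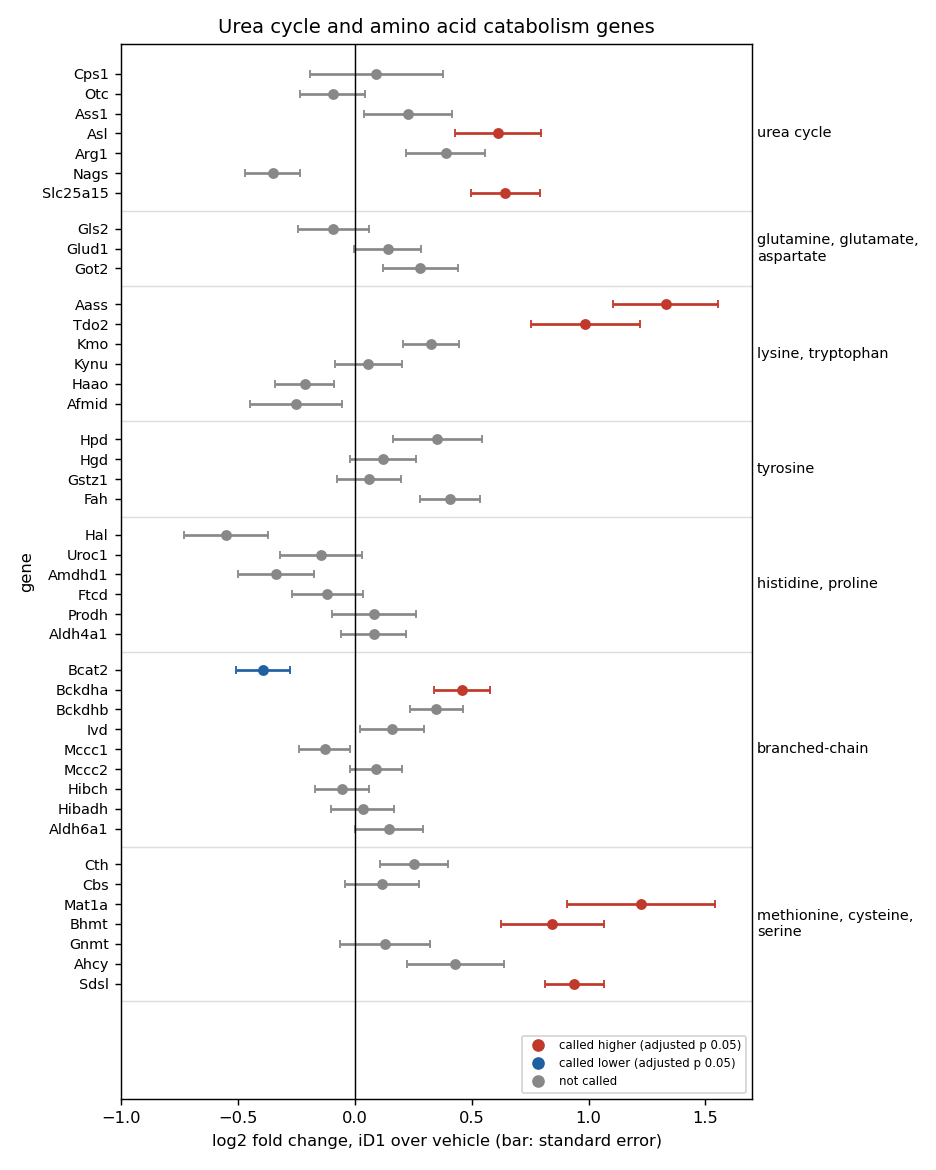
Log2 fold change of iD1 over vehicle for the 42 genes, grouped by pathway, with bars of 1 standard error. Red points were called higher, the blue point was called lower and grey points were not called. Aass at 1.33 and Mat1a at 1.23 lie farthest to the right, and Hal at -0.55 and Bcat2 at -0.39 farthest to the left.

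The vehicle libraries differed among themselves in these genes. Vehicle replicate 1 held the lowest of the 3 vehicle values in 30 of the 42 genes, which is 71.4%, while it was lowest in 34.9% of all tested genes. Among iD1 libraries the lowest value fell on replicate 1 in 18, replicate 2 in 15 and replicate 3 in 9 of the 42 genes. Summed over the 42 genes, vehicle replicate 1 had 20256.9 CPM, vehicle replicate 2 had 29508 CPM and the unnumbered vehicle library had 28618 CPM. The 3 iD1 libraries had 32185, 37267 and 38683 CPM, all above the vehicle sums with TMM scaling. The TMM factor of every vehicle library was above that of every iD1 library, which lowers the vehicle sums relative to the iD1 sums. With library size only, vehicle replicate 2 lies above iD1 replicate 1, so the separation of the sums depends on the scaling. Without vehicle replicate 1, 3 genes were called higher by edgeR: Aass, Mat1a and Sdsl.

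Upstream sequence is shown for 3 of the genes that rose, each with a single listed window. They come 1 each from lysine breakdown, branched-chain breakdown and the methionine cycle. Tdo2 also has 1 window, which is not shown. Its start lies inside the annotated gene, and so do the starts of Bhmt and Bckdha. Most of the sequence shown for Bhmt and Bckdha is thus inside the annotated gene, while that of Aass lies before it. The sequences are the 250 bases before the RefSeq start on build GRCm38.p6, read 5′ to 3′ on the gene's strand. All 3 genes lie on the minus strand, and the windows are chr6:23132987-23133236 for Aass, chr13:93637759-93638008 for Bhmt and chr7:25658762-25659011 for Bckdha. Capitals mark the letters TGACG, the core letters of the cAMP response element, found once in the Aass window and in neither of the others.
Aass: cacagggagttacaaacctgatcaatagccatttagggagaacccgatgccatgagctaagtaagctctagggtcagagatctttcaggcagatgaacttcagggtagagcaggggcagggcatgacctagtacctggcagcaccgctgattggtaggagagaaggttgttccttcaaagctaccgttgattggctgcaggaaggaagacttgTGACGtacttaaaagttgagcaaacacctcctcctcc
Bhmt: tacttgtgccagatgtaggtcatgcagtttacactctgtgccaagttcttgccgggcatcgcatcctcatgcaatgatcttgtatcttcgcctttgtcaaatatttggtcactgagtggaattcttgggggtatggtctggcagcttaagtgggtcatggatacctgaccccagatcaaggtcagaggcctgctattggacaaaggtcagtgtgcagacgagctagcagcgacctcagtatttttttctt
Bckdha: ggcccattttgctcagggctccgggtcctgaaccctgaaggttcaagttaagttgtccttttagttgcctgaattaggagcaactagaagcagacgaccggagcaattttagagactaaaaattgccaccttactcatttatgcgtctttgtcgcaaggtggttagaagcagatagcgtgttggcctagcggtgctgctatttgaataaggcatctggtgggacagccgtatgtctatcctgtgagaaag

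Windows from 250 bases before to 50 bases after the start were found for 34 of the 42 genes, 39 windows in all. On either strand, TGACG was in 10.3% of these 39 windows and in 20.8% of 32851 windows of all genes. The glucocorticoid receptor core AGAACA was in 10.3% and 19.0% of them, and TATAAA in 12.8% and 13.6%. The full cAMP response element TGACGTCA, which contains TGACG, was in none of the 39 windows and in 1.79% of all windows. The C/EBP palindrome TTGCGCAA and the HNF4 core CAAAGTCCA were also in none of the 39, and in 0.183% and 0.475% of all windows. The full glucocorticoid response element and the HNF1 palindrome, searched as exact letters, were in none of the 39 and each in 0.00913% of all windows. A match describes letters in a window and names no bound factor.

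In the urea cycle 2 of 7 genes were called, both higher: the ornithine carrier Slc25a15 and argininosuccinate lyase Asl. The other genes, for carbamoyl phosphate synthesis, citrulline formation, argininosuccinate synthesis and arginase, did not pass the threshold. Slc25a15 (ENSMUSG00000031482.9, chromosome 8 from 22375551 to 22398597) encodes the carrier that brings ornithine into mitochondria and lets citrulline out. It measured 197, 235 and 238 CPM in vehicle replicate 1, vehicle replicate 2 and the unnumbered vehicle library, an order kept for all vehicle values below. In iD1 replicates 1, 2 and 3 it measured 308, 352 and 388 CPM. All 3 iD1 values lay above all vehicle values (log2 fold change 0.64, SE 0.15, edgeR adjusted p = 0.0171).

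Asl (ENSMUSG00000025533.15, chromosome 5 from 130011258 to 130029247) splits argininosuccinate into arginine and fumarate. Its values were 515, 668 and 738 CPM in vehicle livers and 827, 1080.3 and 1027 CPM with iD1. The groups did not overlap, and the log2 fold change of 0.61 (SE 0.18) passed the threshold narrowly, with an edgeR adjusted p of 0.0489. Asl was not called with upper-quartile scaling (edgeR adjusted p = 0.0652), library size only (0.0994), mitochondrially encoded genes left out (0.0512) or no robust shrinkage (0.0538). Arg1, the liver arginase that releases urea, showed 1215, 1425 and 1636 CPM in vehicle livers and 1709.8, 1977 and 1911 CPM with iD1. Its groups did not overlap either, but the log2 fold change of 0.39 (SE 0.17) was not called (edgeR adjusted p = 0.1502).

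Cps1, which makes carbamoyl phosphate from ammonia and is the entry to the cycle, was not called. It varied most among vehicle libraries, with 2338, 5253 and 4633 CPM, and vehicle replicate 1 was far below the others. The iD1 values of 3704, 4347 and 4967 CPM lay within the vehicle range, and the log2 fold change was 0.09 (SE 0.29). That sign was not stable, at -0.11 with library size only and -0.19 without vehicle replicate 1. Nags makes N-acetylglutamate, the activator that Cps1 needs, and had 52.5, 51.3 and 54.7 CPM in vehicle livers and 43.3, 44.5 and 36.3 CPM with iD1. All 3 iD1 values lay below vehicle, and the log2 fold change of -0.35 (SE 0.12) was not called (edgeR adjusted p = 0.0697). It was called lower with upper-quartile scaling (edgeR adjusted p = 0.0340) and with library size only (0.0186).

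Otc, which joins carbamoyl phosphate to ornithine, had 432, 419 and 497 CPM in vehicle livers and 407, 406 and 449 CPM with iD1, a log2 fold change of -0.10 (SE 0.14). Ass1, which condenses citrulline with aspartate, had 2043, 2718 and 2383 CPM in vehicle livers and 3103, 2307 and 2952 CPM with iD1, a log2 fold change of 0.23 (SE 0.19). The groups overlapped in both genes and neither was called, with edgeR adjusted p of 0.683 for Otc and 0.447 for Ass1. The sum of the 7 genes was 9247 ± 2146 CPM in vehicle livers and 10781 ± 847 CPM with iD1 (SD, n = 3 each).

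**Figure D2:**
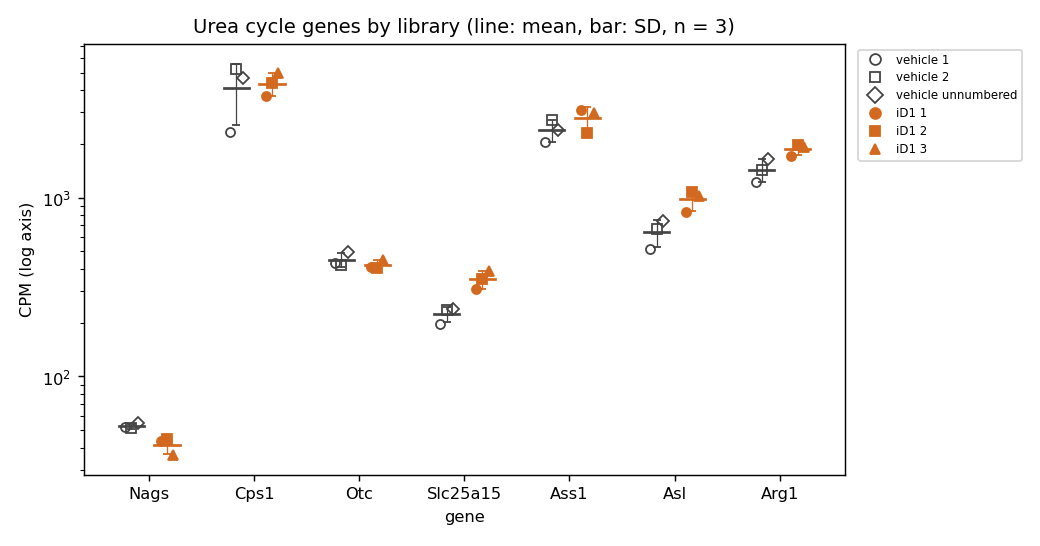
CPM on a log axis for the 7 urea cycle genes in each of the 6 libraries, with open symbols for vehicle and filled symbols for iD1, lines at the group means and bars of 1 SD. Slc25a15, Asl and Arg1 separate with iD1 above vehicle and Nags with iD1 below, while the low Cps1 point is vehicle replicate 1 at 2338 CPM.

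Levels of different genes are compared per kilobase of the longest coding transcript in GENCODE M21. In vehicle livers the order in the cycle was Ass1 at 1404 CPM per kb, Arg1 at 965, Cps1 at 734, Asl at 265, Otc at 149.9, Slc25a15 at 65.1 and Nags at 26.1 CPM per kb. Only the neighbours Arg1 and Cps1 overlapped over the vehicle libraries, at 822 to 1107 and 421 to 946 CPM per kb. The regulator gene Nags was thus the least abundant per length, below the carrier gene Slc25a15.

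The 3 genes that pass nitrogen between glutamine, glutamate and aspartate were not called by edgeR, DESeq2 or limma-voom, and none had an unadjusted p under 0.05. Got2, the mitochondrial aspartate aminotransferase, moved most, with 323, 289 and 260.1 CPM in vehicle livers and 421, 322 and 316 CPM with iD1. The groups overlapped (log2 fold change 0.28, SE 0.16, edgeR adjusted p = 0.269). The liver glutaminase Gls2, which frees ammonia from glutamine, had a log2 fold change of -0.09 (SE 0.15). Glutamate dehydrogenase Glud1, which frees it from glutamate, had 0.14 (SE 0.14).

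In lysine and tryptophan breakdown 2 of 6 genes were called, both higher, and each encodes the first enzyme of its pathway. Aass (ENSMUSG00000029695.13, chromosome 6 from 23072173 to 23132986) encodes the enzyme that joins lysine to 2-oxoglutarate and splits the product. Its values were 168, 301 and 261 CPM in vehicle livers and 697, 501 and 638 CPM with iD1. Every iD1 value was above every vehicle value, and the log2 fold change of 1.33 (SE 0.23) was the largest of the 42 genes (edgeR adjusted p = 0.00526). Tdo2 (ENSMUSG00000028011.16, chromosome 3 from 81957090 to 81976202) encodes tryptophan dioxygenase, which opens the tryptophan ring. It went from 1135, 1507 and 1863 CPM in vehicle to 2328, 2925 and 3674 CPM with iD1, with no overlap (log2 fold change 0.99, SE 0.23, edgeR adjusted p = 0.0205).

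The later kynurenine genes were not called by edgeR. Kmo, the hydroxylase that acts on kynurenine, had 199, 206 and 219 CPM in vehicle livers and 259, 266 and 258 CPM with iD1, narrow groups that did not overlap. Its log2 fold change of 0.33 (SE 0.12) missed the threshold in edgeR (adjusted p = 0.0952) and was called by DESeq2 (adjusted p = 0.0337). Kynureninase Kynu, the formamidase Afmid and the dioxygenase Haao had log2 fold changes of 0.06 (SE 0.14), -0.25 (SE 0.20) and -0.21 (SE 0.13). Haao values did not overlap between groups and were lower with iD1, at 307, 304 and 324 CPM in vehicle livers and 288, 267 and 251 CPM with iD1. Acmsd, the enzyme that diverts the Haao product away from NAD synthesis and is no member of the 42, fell from 41.0, 62.0 and 59.3 CPM to 34.4, 21.7 and 27.7 CPM (log2 fold change -0.95, SE 0.20, edgeR adjusted p = 0.0151). Without vehicle replicate 2, the unnumbered vehicle library or iD1 replicate 3, Acmsd was not called.

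The 4 tyrosine genes, from hydroxyphenylpyruvate to fumarate and acetoacetate, all had log2 fold changes above 0, except Hgd with library size only and Gstz1 with that or upper-quartile scaling, and none was called by edgeR. The 1 gene with an unadjusted p under 0.05 was Fah, the last step, with 364, 383 and 371 CPM in vehicle livers and 509, 484 and 487 CPM with iD1. The groups were tight and did not overlap, and the log2 fold change was 0.41 (SE 0.13) (edgeR adjusted p = 0.0587). DESeq2 and limma-voom called Fah higher, with adjusted p of 0.00396 and 0.0410. Hpd, Hgd and Gstz1, which act before Fah, had log2 fold changes of 0.35 (SE 0.19), 0.12 (SE 0.14) and 0.06 (SE 0.14). The aminotransferase Tat, which starts tyrosine breakdown and is not among the 42, was called higher. It went from 1383, 2203 and 2528 CPM in vehicle to 3983, 5638 and 6029.8 CPM in iD1 livers (log2 fold change 1.36, SE 0.26, edgeR adjusted p = 0.00800).

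No histidine or proline gene was called by edgeR or limma-voom, and 1 of 6 had an unadjusted p under 0.05. The 4 histidine genes, Hal, Uroc1, Amdhd1 and Ftcd, all had log2 fold changes below 0, also under every scaling tried, though Ftcd was at 0.00 without iD1 replicate 2. Hal, the ammonia-lyase that begins histidine breakdown, had 205, 275 and 216 CPM in vehicle livers and 164, 124 and 187 CPM with iD1. The groups did not overlap, and the log2 fold change of -0.55 (SE 0.18) missed the threshold in edgeR (adjusted p = 0.0648). Hal was called lower by DESeq2 (adjusted p = 0.0242), with no filter on low counts (0.0226), with upper-quartile scaling (0.0394) and with library size only (0.0335). Uroc1, Amdhd1 and Ftcd had -0.15 (SE 0.18), -0.34 (SE 0.16) and -0.12 (SE 0.15), each with overlapping groups. The proline genes Prodh and Aldh4a1, which turn proline into glutamate, had 0.08 (SE 0.18) and 0.08 (SE 0.14).

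In branched-chain amino acid breakdown 1 of 9 genes was called higher and 1 lower, and they stand at successive steps. Bcat2 (ENSMUSG00000030826.19, chromosome 7 from 45570153 to 45589711), the mitochondrial aminotransferase that acts first, had 34.4, 35.0 and 32.0 CPM in vehicle livers and 27.2, 27.0 and 23.0 CPM with iD1. The values were low and did not overlap, and Bcat2 fell by 0.39 (SE 0.12) on the log2 scale, with an edgeR adjusted p of 0.0445. Bckdha (ENSMUSG00000060376.7, chromosome 7 from 25629946 to 25658981) encodes a subunit of the dehydrogenase complex that acts next and commits the carbon to breakdown. It rose from 144, 141 and 134 CPM to 179.9, 189.9 and 205 CPM, with no overlap and a log2 fold change of 0.46 (SE 0.12) (edgeR adjusted p = 0.0278). Bckdha was not called with upper-quartile scaling (edgeR adjusted p = 0.0523), library size only (0.184) or no filter on low counts (0.0501).

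Bckdhb, the partner subunit of Bckdha, measured 46.6, 49.2 and 49.5 CPM in vehicle livers and 64.4, 55.4 and 65.3 CPM with iD1. These groups did not overlap, and the log2 fold change of 0.35 (SE 0.11) was not called (edgeR adjusted p = 0.0614). The remaining 6 genes, for isovaleryl-CoA, methylcrotonyl-CoA and the valine branch, ranged from -0.13 for Mccc1 to 0.16 for Ivd on the log2 scale. Their groups overlapped in every case. The Bckdha and B3gnt8 exons share 1171 bases on opposite strands, and the kit was a stranded one, but no source used here says whether counting used strand. The Bcat2 exons share 622 bases with an antisense gene in the same way, and those of Bhmt share 187 bases with another. Several genes that were not called also share exon bases with a gene on the opposite strand, among them Nags (443 bases) and Aldh6a1 (1078 bases).

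The methionine, cysteine and serine group had the most calls, with 3 of 7 genes higher: Mat1a, Bhmt and Sdsl. All 7 had log2 fold changes above 0, except Cbs and Gnmt with library size only, and their median was 0.43. The sum of the group was 7962 ± 2084 CPM in vehicle livers and 13823 ± 2253 CPM with iD1 (SD, n = 3 each). Mat1a and Bhmt made up most of that difference. Mat1a (ENSMUSG00000037798.7, chromosome 14 from 41105035 to 41124412) encodes the liver enzyme that makes S-adenosylmethionine. Its values were 1353, 2953 and 2843 CPM in vehicle livers and 4199, 7019 and 5499.6 CPM with iD1. The groups did not overlap but were wide, vehicle replicate 1 being lowest, and the log2 fold change was 1.23 (SE 0.32) (edgeR adjusted p = 0.0308).

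Bhmt (ENSMUSG00000074768.6, chromosome 13 from 93616675 to 93637961) rebuilds methionine from homocysteine with betaine. It went from 1857, 3184 and 2815 CPM in vehicle to 4139.7, 4890.0 and 5079.9 CPM with iD1, with no overlap (log2 fold change 0.84, SE 0.22, edgeR adjusted p = 0.0296). With library size only it was not called (edgeR adjusted p = 0.0551). Of the 31-base stretches in its transcript, 63.4% also occur in Gm5096, so reads can be split between the pair. Gm5096 itself held 3.03 to 10.1 CPM. Bhmt2, the neighbouring paralog on the same chromosome, measured 184 ± 19.7 CPM in vehicle livers and 189.8 ± 15.01 CPM with iD1 (SD, n = 3 each), a log2 fold change of 0.04 (SE 0.13). The difference between Bhmt and Bhmt2 in their response was not tested.

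Ahcy, which hydrolyses S-adenosylhomocysteine, had 842, 1255 and 1254 CPM in vehicle livers and 1216, 1596 and 1702 CPM with iD1. The groups overlapped, and the log2 fold change of 0.43 (SE 0.21) was not called (edgeR adjusted p = 0.192). Its value is uncertain, because 76.5% of its 31-base stretches also occur in Gm4737, which was given 615 to 1402 CPM in these libraries and a log2 fold change of 0.44 (SE 0.23). The methyl consumer Gnmt had 0.13 (SE 0.19). Cbs and Cth, which carry homocysteine sulfur to cysteine, had 0.11 (SE 0.16) and 0.25 (SE 0.14). None of these 4 was called by edgeR, DESeq2 or limma-voom.

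Sdsl (ENSMUSG00000029596.13, chromosome 5 from 120458186 to 120472810), a serine dehydratase paralog, was the lowest of the 42 in level and the one with the smallest p. It had 7.85, 9.40 and 8.24 CPM in vehicle livers and 16.4, 17.3 and 15.2 CPM with iD1. Both groups were narrow and far apart (log2 fold change 0.94, SE 0.13, edgeR adjusted p = 0.00169). Sds, the main liver serine dehydratase and its neighbour on chromosome 5, is not among the 42 and also rose, from 59.4, 141 and 105 CPM to 302, 329.9 and 452 CPM. The log2 fold change of Sds was 1.82 (SE 0.32), with an edgeR adjusted p of 0.00922. No 31-base stretch of Sdsl occurs in the transcripts of another gene.

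**Figure D3:**
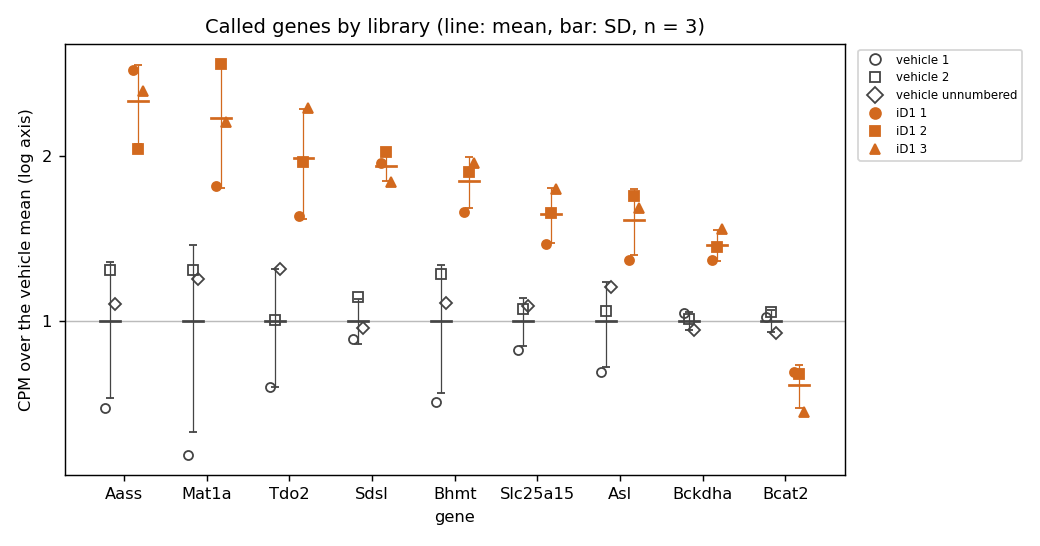
CPM of the 9 called genes in each library, divided by the gene's vehicle mean, on a log axis, with lines at the group means and bars of 1 SD. The iD1 points of 8 genes lie above all vehicle points and those of Bcat2 below, and vehicle replicate 1 is the lowest vehicle point in 7 of the 9 genes.

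The calls of Aass and Sdsl held without any single library, Aass with edgeR adjusted p from 0.00796 to 0.0260 and Sdsl from 0.00266 to 0.0138. Slc25a15 was not called without vehicle replicate 1, the unnumbered vehicle library or iD1 replicate 3 (highest edgeR adjusted p 0.0705). Tdo2 was not called without vehicle replicate 1, vehicle replicate 2 or iD1 replicate 3 (0.0774). Mat1a was not called without vehicle replicate 2, the unnumbered vehicle library or either of iD1 replicates 2 and 3 (0.101). Bhmt was not called without vehicle replicate 1, the unnumbered vehicle library or either of iD1 replicates 2 and 3 (0.0982). Asl, Bckdha and Bcat2 were called without iD1 replicate 1 but not without any 1 of the other 5 libraries, with highest edgeR adjusted p of 0.139, 0.114 and 0.168.

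**Figure D4:**
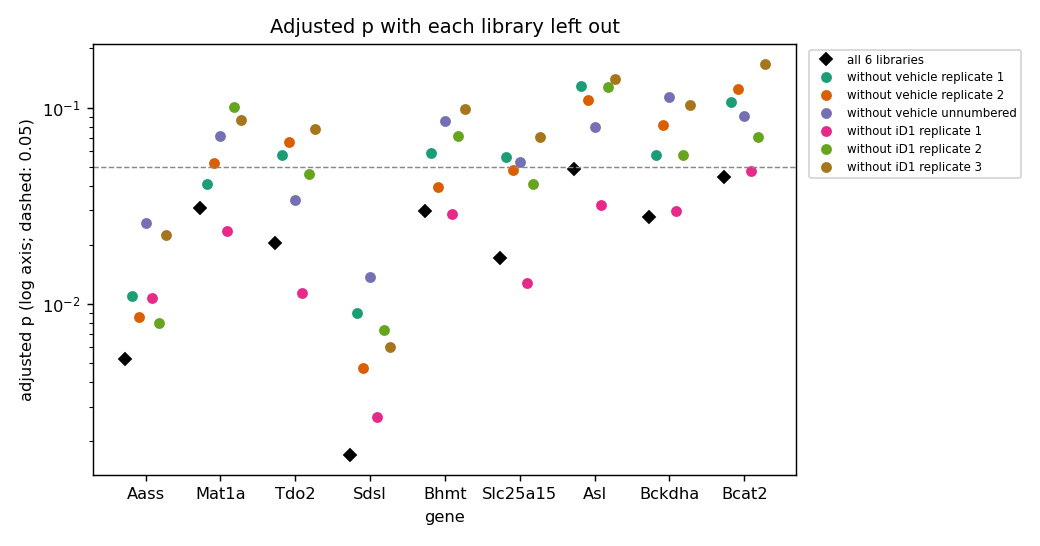
Benjamini-Hochberg adjusted p of edgeR's test, on a log axis, for the 9 called genes with all 6 libraries (diamonds) and with each library left out (circles), with a dashed line at 0.05. Every point of Aass and Sdsl lies under the line, while Asl, Bckdha and Bcat2 have 5 circles each above it.

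A further list held other genes of the same pathways, and 74 of them could be tested. Of these 74, 11 were called higher and 8 lower, which is 14.9% and 10.8%, against 8.42% and 8.30% of all tested genes. Their median log2 fold change was 0.16. The largest rise was Got1, the cytosolic aspartate aminotransferase, from 56.5, 175 and 131 CPM to 483, 569 and 749 CPM (log2 fold change 2.31, SE 0.42, edgeR adjusted p = 0.0142). It was not called without the unnumbered vehicle library or iD1 replicates 2 or 3, each left out alone, or with no filter on low counts (edgeR adjusted p = 0.0706). The smallest p among the rises belonged to Slc25a22, a mitochondrial glutamate carrier, which went from 50.5, 71.4 and 58.1 CPM to 197, 141 and 180.3 CPM (log2 fold change 1.53, SE 0.17, edgeR adjusted p = 7.73e-04).

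Beside Got1, Slc25a22, Tat and Sds, the rises with the smallest p were the alanine aminotransferase Gpt2 and the cyclohydrolase Gch1, whose log2 fold changes were 0.90 (SE 0.17) and 0.93 (SE 0.15). Gch1 starts synthesis of the cofactor that phenylalanine hydroxylase uses. Auh of leucine breakdown had 0.55 (SE 0.12), and the glyoxylate reductase Grhpr had 0.65 (SE 0.15). Auh was not called without vehicle replicate 2, the unnumbered vehicle library or iD1 replicate 3, and Grhpr without vehicle replicate 2, the unnumbered vehicle library or iD1 replicate 2. With library size only, neither Auh nor Grhpr was called (edgeR adjusted p = 0.106 and 0.0960). The other rises, Hsd17b10, Asns and Acadm, were each lost in 5 of the 6 fits with 1 library left out. Got1 and Gpt2 were called while their counterparts Got2, at 0.28, and Gpt, at 0.18, were not, and the differences within these pairs were not tested.

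Of the 8 falls, 4 were among sulfur, glycine, serine and creatine genes, where 1 gene rose, and 2 among branched-chain and propionate genes, where 3 rose. The other falls were Ddo, in a group where 4 rose, and Acmsd. Ethe1, a mitochondrial enzyme of sulfide disposal, went from 33.6, 35.5 and 28.4 CPM in vehicle to 13.1, 12.1 and 12.6 CPM in iD1 livers, the smallest p of the list (log2 fold change -1.37, SE 0.12, edgeR adjusted p = 3.49e-04). Gatm, which begins creatine synthesis, had -1.74 (SE 0.25), and the aspartate oxidase Ddo had -0.998 (SE 0.13). Mmaa and Mmab, which handle the cobalamin cofactor of propionate breakdown, had -0.57 (SE 0.11) and -0.81 (SE 0.22). Amt of the glycine cleavage system had -0.66 (SE 0.15), and Mpst, which handles cysteine sulfur, had -0.49 (SE 0.14). The calls of Ethe1, Gatm, Ddo and Mmaa held without any single library. Mmab was not called without vehicle replicate 1 or 2 or iD1 replicate 1 or 3, and Amt not without vehicle replicate 1, vehicle replicate 2 or iD1 replicate 3. Mpst was called without iD1 replicate 1 but not without any 1 of the other libraries.

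**Figure D5:**
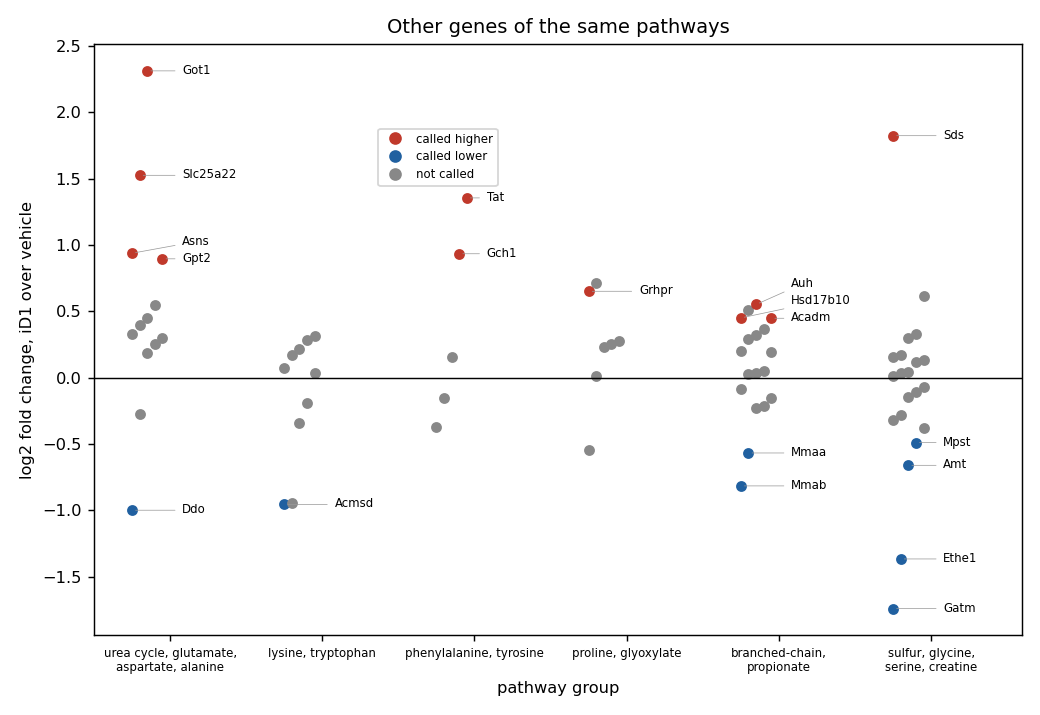
Log2 fold change of iD1 over vehicle for the 74 tested genes of the same pathways outside the 42, by pathway group, with called genes in red or blue and named. Got1 at 2.31 and Sds at 1.82 are highest, and Gatm at -1.74 and Ethe1 at -1.37 are lowest.

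Several of these genes differ along the liver lobule, where urea cycle and gluconeogenic genes are highest near the portal vein and glutamine synthetase near the central vein. Among 7 portal markers outside the 42 genes, 3 were called higher and 1 lower, and their sum was 1938 to 2551 CPM in vehicle livers and 4332 to 5545 CPM with iD1. The portal marker called lower was Cdh1 (log2 fold change -1.49, SE 0.15, edgeR adjusted p = 4.99e-04). Among 10 central markers, 3 were called higher and 1 lower, and their sum was 4319.6 to 5654 CPM in vehicle and 7373 to 10346 CPM in iD1 livers. The central marker called lower was Lgr5 (log2 fold change -1.36, SE 0.29, edgeR adjusted p = 0.0121). Its mean was low, at 2.53 CPM in vehicle and 0.98 CPM in iD1 libraries, and its call was lost without vehicle replicate 2. Pck1, a gluconeogenic enzyme gene, made up most of the portal difference, at 600.0 ± 170.1 CPM in vehicle livers and 2535 ± 309.7 CPM with iD1 (SD, n = 3 each), while the portal marker Cyp2f2 was not called, at 971 ± 142 and 894 ± 159 CPM. The portal list includes Sds. In the central list Cyp2e1 made up most of the difference, at 3761 ± 574 and 7041 ± 1460.1 CPM (SD, n = 3 each). Its call was lost without any 1 vehicle library and without iD1 replicate 3. The other central markers called higher, Slc1a2 (0.81, SE 0.14) and Lhpp (0.90, SE 0.15), kept their calls without any single library. Of the 10 central markers, 6 had log2 fold changes above 0 and 4 below. Glul, glutamine synthetase of the central cells, had 467, 505 and 476 CPM in vehicle livers and 691, 619 and 668 CPM with iD1, groups that did not overlap (log2 fold change 0.45, SE 0.14, edgeR adjusted p = 0.0509). It was not called by edgeR and was called by DESeq2 (adjusted p = 0.00220) and limma-voom (0.0354). The part of zonation in the values of the 42 genes was not tested.

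Across the 42 genes the spread between libraries was uneven. In vehicle the coefficient of variation ran from 2.63% for Fah to 37.7% for Cps1, with Mat1a at 37.5%. In iD1 libraries it ran from 1.65% for Kmo to 25.3% for Mat1a. Per kilobase, Ass1 at 1404 and Gnmt at 1357 CPM per kb were the most abundant in vehicle, and their ranges over the vehicle libraries overlapped, at 1205 to 1603 and 1061 to 1522 CPM per kb. Bhmt at 1052, Hpd at 991 and Arg1 at 965 CPM per kb came next. Sdsl at 5.76 and Bcat2 at 16.2 CPM per kb were the least abundant. The values of Ass1, Afmid, Aldh4a1 and Got2 are less certain than others, because between 38.9% and 64.4% of their 31-base stretches occur in another gene's transcript. Few counts were given to those other genes. Gm5424, which shares with Ass1, held 2.93 to 5.37 CPM, and Gm20708, which shares with Afmid, 4.82 to 14.5 CPM. Gm21969, which shares with Aldh4a1, held 0 to 0.429 CPM, and Got2-ps1 held 0.0929 to 0.366 CPM.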

How the data were processed

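Liver RNA of 3 vehicle and 3 iD1 samples was sequenced with a stranded mRNA kit, per the labels' protocols. The authors deposited unscaled estimated counts for each gene in 1 table. No source used here names the aligner, the quantifier, the build or the annotation. The deposited estimated counts, of which 22.6% to 27.7% per library had decimals, were rounded for testing. Symbols were found for 34582 of 34866 identifiers, and positions and transcript lengths are those of GENCODE M21 on GRCm38, which held 93.4% of the identifiers with their version and 99.2% without it.

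Columns were assigned by name, and the vehicle column whose number no title has was used as a replicate without a number. Within groups no pair of libraries agreed within sampling noise, with chi-square per gene of 38.5 or more. The labels do not say that libraries came from different animals, and p-values then rest on the spread between these samples alone, which may be technical.

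Genes kept by filterByExpr (minimum count 10, minimum total 15) numbered 13718. They were scaled by TMM and compared with edgeR 4.0.16 (R 4.3.3) by the robust quasi-likelihood F test, two-sided, with Benjamini-Hochberg adjustment over all 13718 and a threshold of 0.05. The standard error is the size of the log2 fold change divided by the square root of F. The fit was tested on simulated data. Alternatives were other scalings, DESeq2 1.42.0, limma-voom (3.58.1), other filters, a threshold of 0.01, no robust shrinkage, leaving out mitochondrially encoded genes, a replicate block and leaving out each library. Values are given by library for the called genes, the urea cycle genes and the gene of each group not called with the largest change. Of other pathway genes, up to 8 called in each direction by smallest p are named by rule. Genes chosen after their values were seen were Hsd17b10, Asns, Acadm, Glul, Haao, Bhmt2, Gpt, Pck1, Cyp2f2, Cyp2e1, Slc1a2, Lhpp, Cdh1 and Lgr5. Single endothelial, stellate and cholangiocyte markers and the partners of shared sequence were also chosen after their values were seen. The genes and lists were chosen with earlier results of these data known. Of the further pathway list, 1 gene was not analysed here, and 3 had too few counts to be tested. Of the marker lists, 1 hepatocyte gene was not analysed here. Summed erythroid markers were 140.2 to 219.9 CPM in vehicle and 196 to 239 CPM in iD1 libraries, cholangiocyte markers 22.9 to 36.5 and 28.0 to 45.5 CPM, and lymphocyte markers, too low to be tested, 0.771 to 2.89 and 0.777 to 1.41 CPM.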

Additional observations from a re-analysis of the deposited data

How the results depend on the processing

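Of the 42 genes, 8 were called higher and 1 lower, and of all genes 2293 were called. With library size only, 5 were higher and 3 lower, and with upper-quartile scaling 3 were lower. With DESeq2 or with no filter 2 were lower. At a threshold of 0.01 there were 2 higher, 0 lower and 825 genes in all by edgeR. Leaving out 1 library gave 2 to 8 higher, 0 to 1 lower and 1212 to 2574 genes in all. The 2 came without iD1 replicate 3, and 3 were higher without vehicle replicate 1 or the unnumbered vehicle library. Of the calls, Asl was lost with upper-quartile scaling, library size only, mitochondrially encoded genes left out and no robust shrinkage, Bckdha with upper-quartile scaling, library size only and no filter, and Bhmt with library size only. The cause of these differences was not tested.

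Replicates 1 and 2 carry numbers in both groups, and nothing in the labels pairs them. The deviations of same-numbered libraries correlated at 0.21 and -0.16. With the replicate block on these 4 libraries, edgeR called 3 of the genes higher, 0 lower and 768 in all, and the same 4 libraries without a block, chosen after seeing the data, gave 1, 0 and 521. Hibadh was at -0.031 with the block and -0.031 without it, where Bhmt2 was at -0.00044.

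Over 74 genes named in the text, 42 of them from the list, 1110 of 1332 recomputed fold changes kept direction and side of the threshold, 156 no longer passed it, 27 newly passed it and 39 reversed sign. The reversals were in 19 genes, none of them called. With library size only, which moved the median of all genes to -0.20, the log2 fold changes of Aldh4a1 (-0.12), Aldh6a1 (-0.056), Bhmt2 (-0.17), Cbs (-0.093), Cps1 (-0.11), Glud1 (-0.066), Gnmt (-0.079), Gpt (-0.013), Gstz1 (-0.14), Hgd (-0.082), Hibadh (-0.17), Ivd (-0.042), Kynu (-0.15), Mccc2 (-0.12) and Prodh (-0.12) were below 0. With upper-quartile scaling so were Bhmt2 (-0.033), Gstz1 (-0.014), Hibadh (-0.041) and Kynu (-0.016). Leaving out 1 library turned the sign of Bhmt2 (-0.038 to 0.11), Cbs (-0.011 to 0.25), Cps1 (-0.19 to 0.32), Cyp2f2 (-0.23 to 0.0077), Ftcd (-0.21 to 0.0029), Gls2 (-0.20 to 0.022), Gnmt (-0.021 to 0.24), Hibadh (-0.013 to 0.10), Hibch (-0.11 to 0.0041), Kynu (-0.056 to 0.14) and Prodh (-0.10 to 0.18), given as the range over the libraries left out. Depth was 23515571 counts or more per library.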
